A study of Homo sapiens with 6 samples.

Results

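Long non-coding RNAs (lncRNAs) are transcripts that are not translated into protein. Many are made at low levels and in few cell types, and some act in the nucleus on chromatin or transcription while others bind proteins or RNAs in the cytoplasm. In prostate cancer, lncRNAs are known mainly as markers of tumor progression and as partners of androgen receptor signaling. Most annotated lncRNA genes have no assigned function and carry only the name of the genomic clone in which they were annotated, such as RP11 for a human bacterial artificial chromosome library or AC for a sequence accession.

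The genes described here were 54 such clone-named lncRNAs whose signal was well above background throughout the 3 arrays of the androgen-independent line LNCaP-AI and on no array of parental LNCaP. They were taken from the study's list of lncRNAs that were higher in LNCaP-AI. That list held 245 probes under 211 symbols, of which 165 symbols had a clone name and 1 probe only. Here and below, 1 probe or single-probe counts probes on the list. Whether the array held other probes for these genes could not be checked, because the files do not pair probes with genes. The 54 genes were 32.7% of these 165. They were selected on the very contrast that follows, first by the study's list and then by the detection flags, so each difference between the lines is given as a description without a test. No role is known for these genes from the names used here, and none is assigned.

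LNCaP cells are human prostate cancer cells that depend on androgen, here obtained from ATCC and grown in RPMI-1640 with complete fetal bovine serum. LNCaP-AI was derived from it by prolonged culture in charcoal-stripped serum, from which steroid hormones have been removed, and serves as a model of castration-resistant growth. It is a single derived line, so the comparison concerns this derivative and its parent. Expression was measured on 6 one-color Arraystar lncRNA arrays, 3 per cell line. Letters (a, b and c) name the replicates of LNCaP and numbers (1, 2 and 3) those of LNCaP-AI. Whether replicates were separate cultures is not given in the sources used here, so SDs describe the spread between arrays. Markers of prostate identity could not be checked because the files do not pair their probes with genes.

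Each array held 58965 probes for transcripts, of which 64.5% to 67.3% passed as well above background. The scanner software gives each spot a background-subtracted intensity in arbitrary units and a flag for being well above background. The lowest intensity with that flag, called the limit of an array here, was 32.3, 26.9 and 28.6 on LNCaP replicates a, b and c, respectively, and 23.6, 31.0 and 25.9 on LNCaP-AI replicates 1, 2 and 3. Spots whose signal was not significantly above background receive a small fixed value, which lay between 4.70 and 6.44. LNCaP replicates a and b shared a slide, and LNCaP replicate c shared the other slide with all 3 LNCaP-AI arrays. The intensities of different probes also depend on how well each probe binds, so an order of probes below is an order of spot brightness and not of RNA amount. In a culture measured in bulk, fewer expressing cells and less RNA per cell cannot be told apart.

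Across the whole array, 331 of 58965 probes, or 0.561%, were well above background on all LNCaP-AI arrays and no LNCaP array. The opposite pattern was seen for 293 probes. Of the 331 probes, 66 were on the study's list and 54 of these are the genes described here. The other 111 clone-named genes with 1 probe were well above background on 1 LNCaP array in 7 cases, on 2 arrays in 10 cases and on all 3 arrays in 94 cases.

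The 54 lncRNAs were dim in both lines, with 2 exceptions in LNCaP-AI. Their median intensity was 18.4, 14.1 and 14.7 on LNCaP replicates a, b and c, respectively, and 45.5, 50.5 and 50.9 on LNCaP-AI replicates 1, 2 and 3. On the LNCaP arrays their intensities ran from the fixed value up to 30.5, 26.8 and 27.1. On the LNCaP-AI arrays they ran from 30.3 to 881, from 31.7 to 711 and from 34.0 to 738. AC145123.2 and AC144450.2 made up the whole upper end, since the gene with the third highest mean intensity reached only 100.3.

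**Figure D1:**
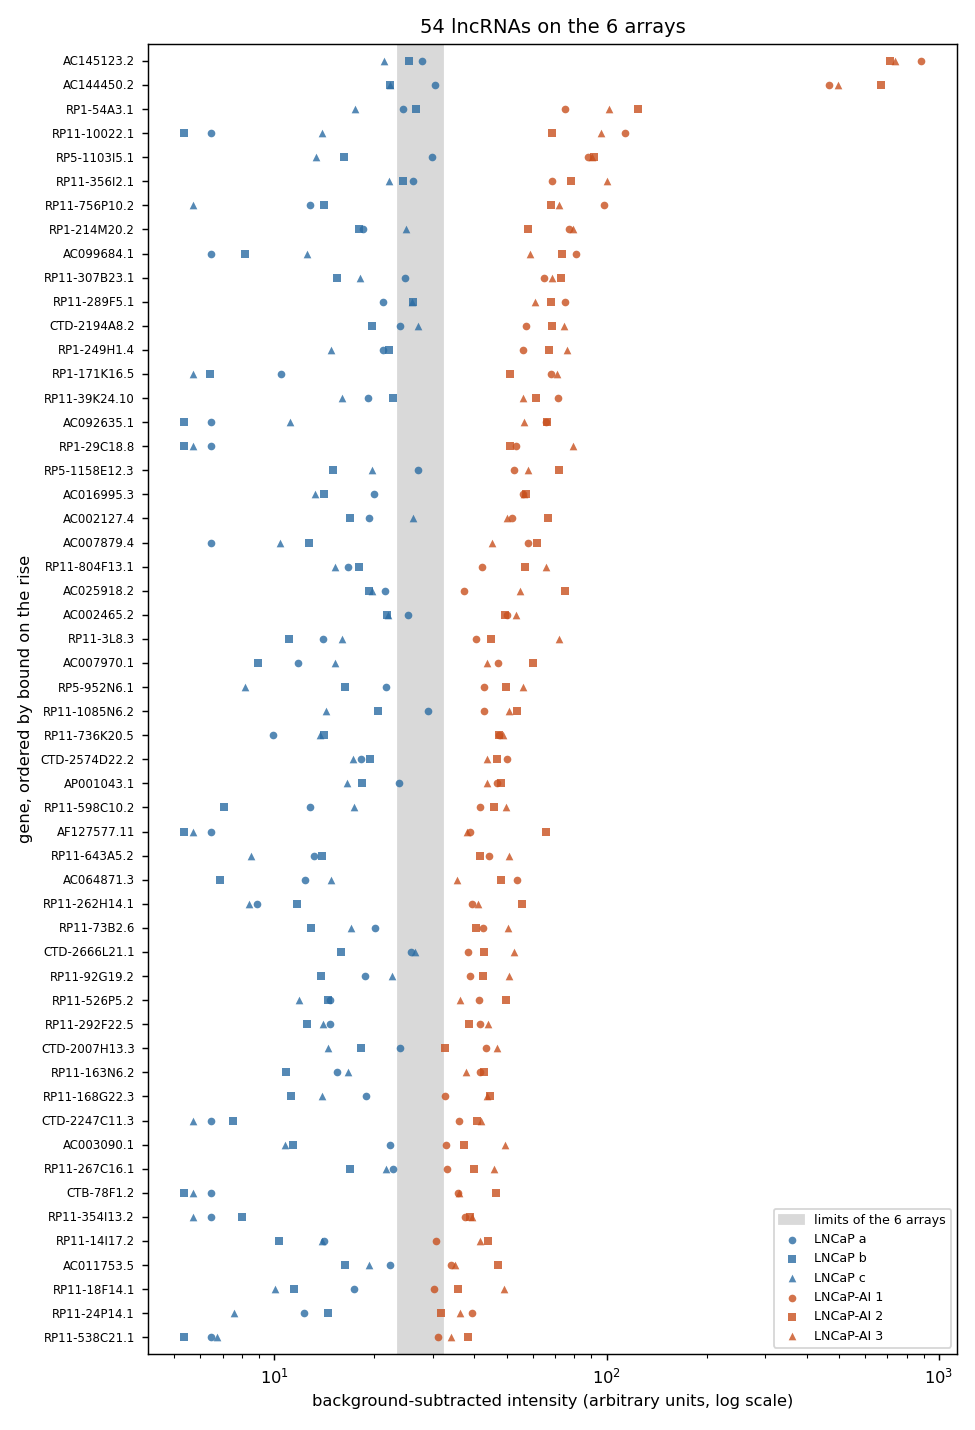
Background-subtracted intensity of each of the 54 lncRNAs on the 6 arrays (log scale, arbitrary units), 1 gene per row in order of the bound on its rise; blue symbols are LNCaP, orange symbols LNCaP-AI, and the grey band spans the limits of the 6 arrays, 23.6 to 32.3. Most LNCaP-AI points lie just to the right of the band, and AC145123.2 and AC144450.2 stand alone between 467 and 881.

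Because the LNCaP signal was below the limit on every array, only a lower bound on the rise can be given. The bound sets the mean normalized log2 signal in LNCaP-AI against the mean, over the LNCaP arrays, of the limit or of the gene's own signal where that was higher. The LNCaP signal was never the higher of these for any of the 54 genes, so the order of the bounds was the order of LNCaP-AI brightness for 54 of 54. The median bound was 1.76-fold and the range was 1.23 to 27.8. The bound was over 2-fold for 19 genes, over 3-fold for 5 and 2-fold or less for 35. Among all probes with the same flags that were tested, 330 in number, 23.3% had a bound over 2-fold and the median bound was 1.52. With an alternative background correction, normexp with an offset of 50, the bound exceeded 2-fold for 3 of the 54, and with normexp and no offset for 34.

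**Figure D2:**
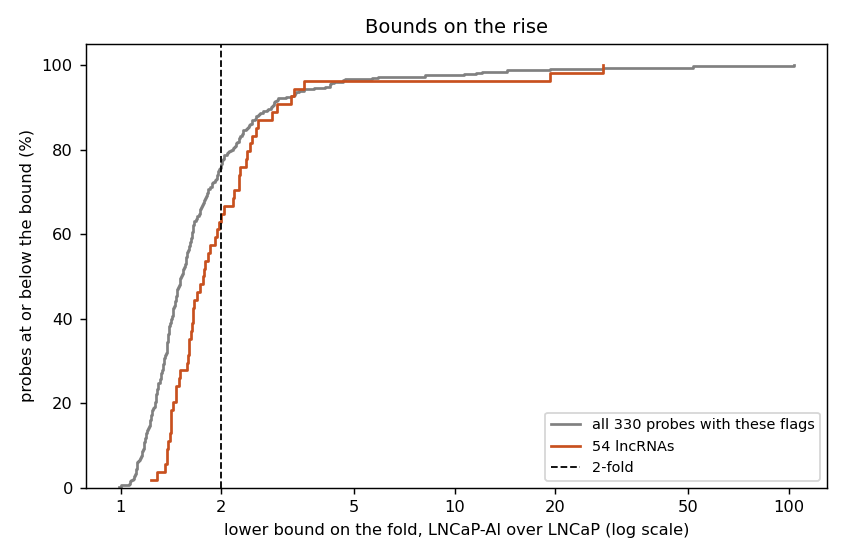
Share of probes (vertical axis, %) whose bound on the fold of LNCaP-AI over LNCaP is at or below the value on the horizontal axis (log scale), for the 54 lncRNAs (orange) and for all 330 tested probes with the same flags (grey); the dashed line marks 2-fold. Of the 54, 35 lie at or left of that line, and the 2 highest bounds are 19.3 and 27.8.

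In the fit across all probes (limma, Benjamini-Hochberg adjustment, adjusted p under 0.05 and at least 2-fold), 1103 of 39088 tested probes, or 2.82%, were called higher in LNCaP-AI. Among the 330 tested probes with the same flags, 70% were called higher. All 54 lncRNAs were called, which follows from the way they were chosen. With slide as a block in the fit 46 of them were called, next to 851 probes called higher across the array. Their fitted log2 fold change had a median of 1.85, from 1.02 to 5.03. The median corresponds to 3.60-fold, above the median bound of 1.76-fold, because the fit uses LNCaP intensities below the limit as if they were measured. With the normexp offset of 50, 4 of the 54 were called, and without an offset 34. Across the array 470 and 792 probes, respectively, were called higher.

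AC145123.2 (probe ASHGA5P045068) had the largest bound. Its intensity was 27.9, 25.4 and 21.4 on LNCaP replicates a, b and c, compared with 881, 711 and 738 on LNCaP-AI replicates 1, 2 and 3. The LNCaP-AI arrays were thus far above all LNCaP arrays, with a mean of 776 ± 91.3 (SD, n = 3) against signals that were below the limit. The bound on the rise was 27.8-fold, but 20.5-fold with normexp and no offset and 9.52-fold with the normexp offset. On the LNCaP-AI arrays its spot was brighter than every spot of the array's negative control probes, the 600 spots that the design names as negatives, on 3 of 3 arrays.

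AC144450.2 (probe ASHGA5P034837) followed, with intensities of 30.5, 22.3 and 22.4 on LNCaP replicates a, b and c. Its LNCaP-AI intensities were 467, 671 and 498 on replicates 1, 2 and 3. Replicate 2 was the brightest array before normalization, and after it the log2 values had an SD of 0.08 around a mean of 9.11 (n = 3). The bound on the rise was 19.3-fold, but 13.4-fold with normexp and no offset and 6.73-fold with the normexp offset. By their bounds AC145123.2 and AC144450.2 ranked 3 and 4 among all probes with these flags.

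The next 3 genes had bounds between 3 and 4. RP1-54A3.1 read 24.5, 26.8 and 17.5 on LNCaP replicates a, b and c, compared with 74.8, 124 and 102 on LNCaP-AI replicates 1, 2 and 3. It was also the gene closest to the limit in LNCaP, at 99.5% of it on replicate b. Its bound was 3.53-fold, and 1.83-fold with the normexp offset.

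The gene of probe ASHGA5P039130, whose symbol could not be read with certainty, varied most among the LNCaP-AI arrays. It read 6.44 and 5.37 on LNCaP replicates a and b, which are the fixed values, and 13.9 on replicate c. In LNCaP-AI it read 114, 68.4 and 96.1 on replicates 1, 2 and 3, and its normalized log2 SD of 0.52 was the highest of the 54. Its bound was 3.29-fold, and 2.17-fold with the normexp offset. With AC145123.2 and AC144450.2 it made up the 3 genes whose bound stayed over 2-fold under that correction.

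RP5-1103I5.1 had a small spread of intensity in LNCaP-AI and the largest of the 54 in LNCaP, with an SD of 8.83 (n = 3). It read 29.9 on LNCaP replicate a but 16.2 on b and 13.4 on c. On LNCaP-AI replicates 1, 2 and 3 it read 87.8, 91.5 and 90.1, a mean of 89.8 ± 1.84 (SD, n = 3). Its bound was 3.24-fold, and 1.86-fold with the normexp offset.

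The remaining genes among the 10 largest bounds lay between 2.47-fold and 2.93-fold. RP11-356I2.1 read 26.2, 24.5 and 22.2 in LNCaP a, b and c against 68.3, 78.4 and 100 in LNCaP-AI 1, 2 and 3, a bound of 2.93-fold. RP11-756P10.2 read 12.9, 14.1 and 5.71 against 98.0, 67.9 and 71.9, with a bound of 2.83-fold. In both genes every LNCaP-AI array was brighter than every LNCaP array.

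RP1-214M20.2 read 18.5, 18 and 24.9 in LNCaP a, b and c against 77.3, 58.1 and 79.5 in LNCaP-AI 1, 2 and 3, a bound of 2.57-fold. AC099684.1 read 6.44, 8.15 and 12.5 against 81.1, 73.4 and 58.7, a bound of 2.54-fold. RP11-307B23.1 read 24.8, 15.5 and 18.1 against 64.7, 73.0 and 68.7, and its normalized log2 SD of 0.05 in LNCaP-AI was the lowest of the 54. Its bound was 2.47-fold. Under the normexp offset the bounds of these 5 genes lay between 1.56-fold and 1.86-fold.

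At the other end, the 3 genes with the weakest LNCaP-AI signal were RP11-538C21.1, RP11-24P14.1 and RP11-18F14.1. RP11-538C21.1 read 6.44, 5.37 and 6.75 in LNCaP a, b and c, compared with 31.1, 38.4 and 34.0 in LNCaP-AI 1, 2 and 3, with a bound of 1.23-fold. With the normexp offset its bound was 1.36-fold, and with normexp and no offset 2.07-fold. RP11-24P14.1 read 12.3, 14.5 and 7.58 against 39.4, 31.7 and 36.1, a bound of 1.28-fold. RP11-18F14.1 read 17.4, 11.5 and 10.0 against 30.3, 35.8 and 49.1, a bound of 1.35-fold. With the normexp offset the bounds of RP11-24P14.1 and RP11-18F14.1 were 1.27-fold and 1.28-fold, below that of RP11-538C21.1. The LNCaP-AI signal of these genes was near the limit.

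Several genes lay next to the limit that defined them. In LNCaP the highest shares of the limit were those of RP1-54A3.1 at 99.5%, RP11-289F5.1 at 97.4% and CTD-2194A8.2 at 94.6%. RP11-289F5.1 read 21.2, 26.2 and 25.9 in LNCaP a, b and c, compared with 74.8, 68.2 and 61.1 in LNCaP-AI 1, 2 and 3, a bound of 2.44-fold. CTD-2194A8.2 read 23.9, 19.7 and 27.1 against 57.4, 68.7 and 74.4, a bound of 2.39-fold. With the normexp offset these bounds were 1.502-fold and 1.55-fold. Like all 54 genes, both were brighter on every LNCaP-AI array, although they only just missed the flag in LNCaP. In LNCaP-AI the lowest values relative to the limit were 1.02 times for RP11-24P14.1, 1.05 times for CTD-2007H13.3 and 1.16 times for RP11-18F14.1. CTD-2007H13.3 read 24.0, 18.2 and 14.6 in LNCaP a, b and c, compared with 43.4, 32.7 and 46.8 in LNCaP-AI 1, 2 and 3.

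Just outside the selection were 3 genes of the list that passed the limit on 1 LNCaP array. CTD-3035D6.2 reached 104% of the limit in LNCaP, with 33.8, 19.0 and 14.6 on replicates a, b and c, compared with 80.7, 155 and 91.6 on LNCaP-AI replicates 1, 2 and 3. RP11-68I3.11 reached 102% and CTD-2206N4.4 101%. Measured in the same way, their bounds were 3.70-fold, 2.003-fold and 1.95-fold, inside the range of the 54 genes.

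The label undetected depended on the flag used. A weaker flag of the same software marks a spot as positive and significantly above its local background. Of the 54 genes, 43 carried that flag on all 3 LNCaP arrays, 3 on 2 arrays, 5 on 1 array and 3 on no LNCaP array. The share with all 3 flags was 79.6%, next to 80.1% of all 331 probes with the same pattern and 29.1% of the 18031 probes that were not well above background on any LNCaP array. The weaker flag was also set on 31.2% to 37.7% of the negative control spots. The stronger flag that defined the 54 genes was set on 14.3% to 15.2% of them on the LNCaP arrays and 16.8% to 17.5% on the LNCaP-AI arrays. The stronger flag was uneven over the 60 negative control probes. It was set in all spots on all arrays for 4 of them, and in no spot on any array for 16. Its share over spots is thus not the rate of a typical negative control probe. Neither flag by itself shows a transcript. In LNCaP the median gene stood at 57.0%, 52.5% and 51.2% of the limit of replicates a, b and c, and in LNCaP-AI at 193%, 163% and 197% of it on replicates 1, 2 and 3.

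**Figure D3:**
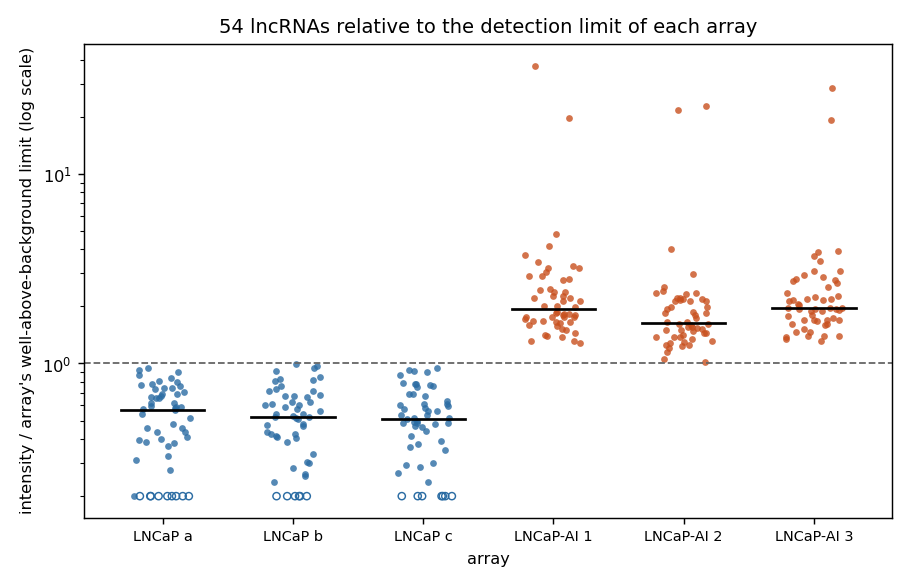
Intensity of the 54 lncRNAs divided by the limit of the array (log scale, with the limit itself as a dashed line), 1 point per gene. Horizontal bars are medians and open circles are spots at the fixed value. All LNCaP points lie below the line and all LNCaP-AI points above it because the genes were selected so, with 9, 6 and 7 genes at the fixed value on LNCaP replicates a, b and c.

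RP1-29C18.8, AF127577.11 and CTB-78F1.2 were the 3 genes at the fixed value on every LNCaP array, namely 6.44, 5.37 and 5.71 on replicates a, b and c. They are the 3 that lacked the weaker flag on all LNCaP arrays. RP1-29C18.8 read 53.5, 51.3 and 79.4 on LNCaP-AI replicates 1, 2 and 3, with a bound of 2.18-fold. AF127577.11 read 38.8, 65.9 and 38.2, with a bound of 1.64-fold. CTB-78F1.2 read 35.6, 46.6 and 36.0, with a bound of 1.40-fold. These genes were not the brightest in LNCaP-AI. The 43 genes above the fixed value on every LNCaP array had a median LNCaP-AI intensity of 49.2, and these 3 had a median of 47.6. The genes AC092635.1, CTD-2247C11.3, RP11-354I13.2, RP11-538C21.1 and that of ASHGA5P039130 were at the fixed value on 2 LNCaP arrays, and AC099684.1, RP1-171K16.5 and RP11-756P10.2 on 1.

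The separation of the lines was also examined on the raw spot signal, before any background was subtracted. The median raw signal of the 54 spots was 96.5, 78 and 77 on LNCaP replicates a, b and c, compared with 99.75, 113.5 and 111 on LNCaP-AI replicates 1, 2 and 3. The median negative control spot was dimmer in LNCaP-AI, with medians of 79, 64 and 65 on the LNCaP arrays and 57.5, 60.5 and 60 on the LNCaP-AI arrays. Their upper end was brighter in LNCaP-AI after background subtraction, with a 95th percentile of 163, 187 and 142 on replicates 1, 2 and 3 against 93.3, 86.4 and 131 on LNCaP replicates a, b and c. That difference rested largely on 1 probe, Negative047, without which the percentile was 108, 107 and 95.5 in LNCaP-AI and 95.7, 92.2 and 131 in LNCaP. On raw signal all 3 LNCaP-AI arrays lay above all 3 LNCaP arrays for 37 of the 54 genes, and the lines overlapped for 17. AC002465.2 was one of these, chosen here after its values were seen, with raw signals of 106, 84 and 80 in LNCaP a, b and c against 109, 103 and 113.5 in LNCaP-AI 1, 2 and 3. Without LNCaP replicate a, whose negative control spots were the brightest, the raw signals were separated for all 54 genes. The genes were chosen by flags on background-subtracted signal on these same arrays, so a separation of the lines restates that choice and carries no further support. The same counts over other probes are not given here, so these counts have no share over the array to stand beside.

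**Figure D4:**
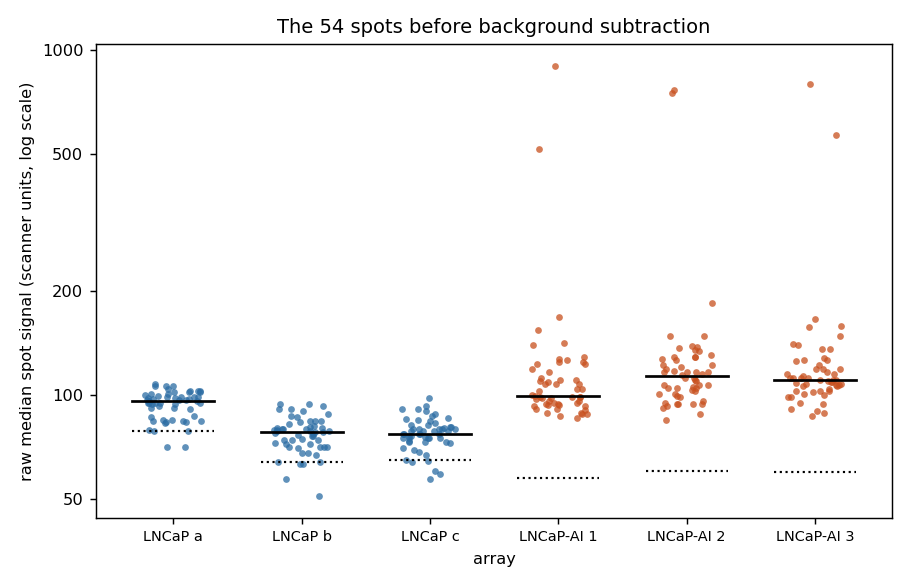
Raw median spot signal of the 54 lncRNAs before background subtraction (log scale, scanner units), 1 point per gene on each of the 6 arrays; solid bars are medians of the 54 and dotted bars are medians of the negative control spots. The medians of the 54 are 96.5, 78 and 77 on the LNCaP arrays and 99.75, 113.5 and 111 on the LNCaP-AI arrays, while the dotted bars are lowest on the LNCaP-AI arrays.

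In LNCaP-AI the 54 genes stayed among the dim spots. Their median intensity averaged over the line was 49.3, from 34.5 to 776, and it was under 60 for 36 genes and under 100 for 51. The median gene was brighter than 15% of the well-above-background probes. The 94 listed single-probe genes that were well above background on all LNCaP arrays had a median LNCaP-AI intensity of 272, and the 17 that were so on 1 or 2 LNCaP arrays had 80.5. As the groups were formed by the LNCaP signal of the same probes, this order is a description. Only 2 of the 54 genes, AC145123.2 and AC144450.2, exceeded the 95th percentile of the negative control spots on the LNCaP-AI arrays, and without the spots of Negative047 3, 3 and 5 genes did on replicates 1, 2 and 3.

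**Figure D5:**
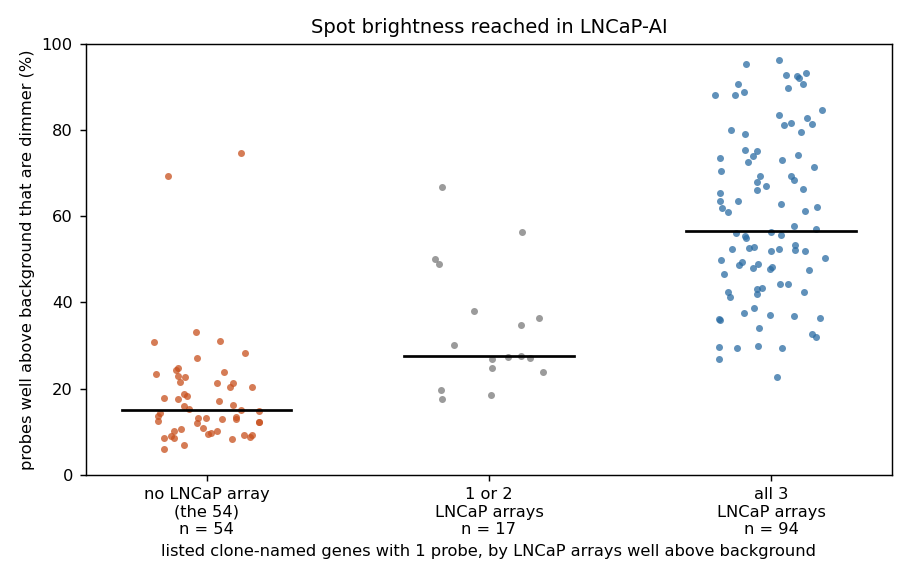
Brightness in LNCaP-AI of the 165 listed clone-named genes with 1 probe, as the percentage of well-above-background probes that were dimmer (vertical axis, mean of 3 arrays), split by the number of LNCaP arrays on which the gene was well above background; bars are medians. The 54 genes have a median of 15%, and all but 2 of them lie at 33.1% or lower.

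The spread between the LNCaP-AI arrays was close to that of all tested probes. The study cut its list by fold change and P-value on these same arrays, and the flag was required on all 3 LNCaP-AI arrays. Both steps favor genes with a small spread, so the values below are a description. The median SD of the normalized log2 signal over the 3 LNCaP-AI arrays was 0.21 for the 54 genes and 0.19 for all tested probes. In LNCaP, where the signals were below the limit, the corresponding medians were 0.29 and 0.15. The brightest LNCaP-AI array was over 1.5-fold above the dimmest for 12 of the 54 and over 2-fold for 1, that of ASHGA5P039130. No array carried the set: after normalization the brightest LNCaP-AI value fell on replicate 1 for 21 genes, on replicate 2 for 12 and on replicate 3 for 21. When the genes were ordered by LNCaP-AI brightness, the arrays of neighbouring genes overlapped in all but 2 of 53 pairs, so most neighbours in that order are not told apart. Some genes far apart in the order overlapped too. RP1-214M20.2, at place 8, had a lowest log2 value of 5.76, and AC002465.2, at place 24, a highest of 5.80. Below RP5-1103I5.1, whose log2 SD was 0.12, 45 of the 54 lay wholly on the LNCaP-AI arrays.

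The names show no crowding on particular clones. Of the 54, 25 were named after RP11 clones, 15 after AC, AF or AP accessions, 8 after RP1 or RP5 clones and 6 after CTB or CTD clones. None of them shared a clone name with another symbol of the list. Only 10 of the 165 genes did, so its absence is not read as a trait of the 54. The spots were spread over the array, with 18, 8, 13 and 15 of them in its upper left, upper right, lower left and lower right parts.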

How the data were processed

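Total RNA of 3 LNCaP and 3 LNCaP-AI samples was depleted of rRNA, labeled with Cy3 and hybridized to 1 array per sample by the authors. The authors deposited Feature Extraction 11.0.1.1 output, in which each spot has a background-subtracted intensity (not normalized between arrays), raw and local background intensities, and flags (well above background, positive and significant, outlier). The study normalized in GeneSpring, whose values were not used here. From the study's own comparison table only probe names and symbols were taken, and the fold changes and p-values it also holds were not used. Its pages had been read into text, so letters of a symbol may be misread, as in that of probe ASHGA5P039130. All listed probe names matched the arrays.

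Control spots and outlier spots were left out, intensities under 1 were set to 1, and log2 values were quantile-normalized. A probe was tested when at least 3 of the 6 arrays showed it well above background, which left 39088, and both lines were fitted with lmFit and eBayes of limma 3.58.1 (R 4.3.3; two-sided, Benjamini-Hochberg over all tested probes), a fit also tested on simulated data. The genes, lists and tests were chosen with earlier results of these data known. Groups came from the cell line stated for each sample. The genes named are the 10 with the largest bound, the 5 brightest and 3 dimmest in LNCaP-AI, any that shared a clone name with another listed symbol, the 3 nearest the limit on each side, and 3 just outside; others are named where a small count required it. Alternatives were 75th percentile scaling, normexp on the median spot signal (the files hold no mean signal column), no filter on dim probes, outlier spots kept, a slide block, the methods' t-test, another floor for the bound, other flags, and omission of single arrays. Depth here means signal over background, and precision is limited by the number of arrays. No coordinates or sequences are given, because the symbols matched no entry of the RefSeq tables used here. The planned check of prostate, fibroblast, leukocyte and basal markers was not run, since their probes carry no gene name.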

Additional observations from a re-analysis of the deposited data

Results flagged for a closer look

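A signal outside the main measurement appeared among the probes that the array design names as negatives, which were left out of the normalization and the fit and used only as a measure of background. The probe named Negative047 has 10 spots. Its mean intensity was 12, 8.94 and 9.81 on LNCaP replicates a, b and c, compared with 435, 362 and 365 on LNCaP-AI replicates 1, 2 and 3, a mean of 388 in LNCaP-AI. On each LNCaP-AI array 10 of 10 spots were well above background, and on each LNCaP array 0 of 10 were. It was the 1 probe of 60 so named with this pattern in all its spots. What this probe hybridizes to is not given in the sources used here, and the cause was not tested. Its spots raised the 95th percentile of the negative control spots in LNCaP-AI from 108, 107 and 95.5 to 163, 187 and 142 on replicates 1, 2 and 3.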

How the results depend on the processing

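Normexp with an offset of 50 left 932 probes called across the array, 470 of them higher, against 2142 and 1103. Of the 54 lncRNAs it called 4, with 3 bounds over 2-fold and a median bound of 1.47. Normexp with no offset, added after those values were seen, called 34, with 34 bounds over 2-fold and a median of 2.19. The bounds thus moved in both directions with the background correction while the calls fell with either, and the cause was not tested. With the positive and significant flag in place of the stronger one, 3 of the 165 genes met the rule, and with the 95th percentile of the negative control spots, also added later, 14 did, or 29 when the spots of Negative047 were left out of that percentile. Leaving out each array in turn gave 1917 to 2390 probes called, 51 to 54 of the genes called, 18 to 21 bounds over 2-fold, a median bound of 1.73 to 1.79 and 54 to 58 genes meeting the rule. With slide as a block 46 of the 54 were called, and with the methods' t-test 54 by the methods' limits (unadjusted) and 48 after adjustment. Across the array 851, 888 and 764 probes, respectively, were called higher. No paired analysis was possible because no replicate number is common to both lines. A bound depends on the limit of the LNCaP arrays, and rises smaller than the distance to it cannot be measured.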
